A study of Mus musculus with 2 samples.

Results

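The genes described are 10 that mark natural killer (NK) cells and NK-gene T cells in the mouse, read in single cells of popliteal lymph nodes (PLNs). They were chosen by symbol: the receptors Klra7, Klrc1, Klrc2, Klre1, Klrk1, Klrd1, Klrb1c and Ncr1, and the transcription factors Eomes and Tbx21, which are 10 of the 32285 genes in the count tables. Of these, 7 receptors are C-type lectins, whereas Ncr1 is an immunoglobulin-superfamily receptor and Eomes and Tbx21 are T-box factors. The Advanced library came from TNF-Tg mice over 8 months of age with Advanced arthritis, and the Early library from TNF-Tg mice of 5 to 6 months with Early arthritis. Each library pooled 6 PLNs from 3 male mice, so all cells compared here carry the human TNF transgene on a C57BL/6 background, and no wild-type nodes are compared here. All mice received Evans blue dye in the hindpaw so that the nodes could be found. Live nucleated cells were sorted (Hoechst-positive, Sytox Green-negative) with no selection of a lineage. With 1 library per stage, no difference between Advanced and Early has a replicate check, mouse age, stage and library cannot be told apart, and no test was possible. Intervals in parentheses are 95% and cover counting error only.

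NK receptors set the balance by which NK cells and some T cells kill or spare other cells. Klrd1 (CD94) pairs with Klrc1 (NKG2A), which inhibits on meeting the MHC class Ib molecule Qa-1, or with Klrc2 (NKG2C), which activates through the adaptor Tyrobp (DAP12). Klrk1 (NKG2D) activates on meeting stress-induced ligands through the adaptor Hcst (DAP10), Klra7 (Ly49G) inhibits on meeting classical MHC class I, Klre1 is an NK receptor of the same gene complex, and Klrb1c is NK1.1, the antigen long used to stain NK cells of C57BL/6 mice. Ncr1 (NKp46) is the receptor held most closely to NK cells and type 1 innate lymphoid cells. Eomes and Tbx21 (T-bet) drive the NK programme and also the effector and memory programmes of CD8 T cells. Neither the Klr genes nor the T-box factors therefore name an NK cell on their own, and the co-detection of Cd3e, a chain of the T cell receptor complex, and Cd8a, the co-receptor of cytotoxic T cells, is read here cell by cell.

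The Advanced library held 8201 barcodes and 83148059 unique molecular identifiers (UMIs, counted near the 3' end of a transcript), and the Early library 8242 barcodes and 67610110 UMIs. Barcodes with at least 200 genes were kept, which left 8183 Advanced cells with a median of 7837 UMIs and 8221 Early cells with a median of 6643 UMIs. The libraries shared 20 barcodes, and leaving these out gave 6.70 in place of 6.74 for the first ratio of cell shares below. Most cells carried B cell markers: 60.6% of Advanced and 86.2% of Early cells fell in the B gate alone (3 or more of 4 B cell markers with 5 or more summed UMIs, and no other gate).

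The 7 lectin genes lie within 1.45 Mb of chromosome 6, the NK gene complex, between positions 128778485 and 130233322 of mm10. Ncr1 lies on the plus strand of chromosome 7 (4337724 to 4345164), Eomes on the plus strand of chromosome 9 (118478212 to 118486132) and Tbx21 on the minus strand of chromosome 11 (97098071 to 97115331). RefSeq promoter windows of GRCm38.p6, from 250 bases before to 50 after a gene's start, matched 9 of the 10 members. The letters of the RUNX motif, TGTGGT or on the other strand ACCACA, were present, at 1 start site or more, in 6 of these 9 (Klrc1, Klrc2, Klre1, Klrk1, Klrb1c and Ncr1), against 16.8% of all 32851 windows. Members are counted by gene, with up to 2 windows each, and the background by window, so the shares differ in unit. The windows of Eomes, Tbx21 and Klra7 held none. The T-box letters CACACC or GGTGTG were in 0 of 9 against 19.0% of all windows, the longer form TCACACCT in 0 of 9 against 1.28%, and the ETS letters CCGGAA in 0 of 9 against 14.9%. RUNX factors act in both NK cells and CD8 T cells, and a match in letters is no evidence of binding. The windows of 4 members are shown because they lay in different cells of the Advanced library. Ncr1 lay mainly in NK-like cells, Klrb1c in both NK-like and Cd3e-bearing cells, Klrk1 also in myeloid cells and Klrc1 in T cells. The RUNX letters are in capitals: Ncr1 at chr7:4337465-4337764, plus strand, Klrb1c at chr6:128788592-128788891, minus strand, Klrk1 at chr6:129623815-129624114, minus strand and Klrc1 at chr6:129678924-129679223, minus strand.
Ncr1: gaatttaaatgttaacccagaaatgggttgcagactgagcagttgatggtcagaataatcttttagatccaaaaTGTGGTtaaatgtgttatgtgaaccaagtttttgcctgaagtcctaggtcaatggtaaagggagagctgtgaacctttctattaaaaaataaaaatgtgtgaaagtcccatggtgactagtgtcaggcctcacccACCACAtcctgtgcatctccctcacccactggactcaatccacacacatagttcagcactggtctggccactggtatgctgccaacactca
Klrb1c: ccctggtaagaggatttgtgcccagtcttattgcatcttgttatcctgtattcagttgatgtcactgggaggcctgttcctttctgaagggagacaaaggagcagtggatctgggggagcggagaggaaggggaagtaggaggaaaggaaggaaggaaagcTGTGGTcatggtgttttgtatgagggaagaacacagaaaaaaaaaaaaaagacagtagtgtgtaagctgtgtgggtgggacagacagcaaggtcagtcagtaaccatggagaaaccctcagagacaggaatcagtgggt
Klrk1: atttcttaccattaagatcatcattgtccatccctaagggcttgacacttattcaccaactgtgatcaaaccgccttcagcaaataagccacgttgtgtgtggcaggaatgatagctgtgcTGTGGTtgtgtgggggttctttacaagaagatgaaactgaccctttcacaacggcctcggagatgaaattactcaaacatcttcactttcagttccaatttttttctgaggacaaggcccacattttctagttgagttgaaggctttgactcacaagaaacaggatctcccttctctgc
Klrc1: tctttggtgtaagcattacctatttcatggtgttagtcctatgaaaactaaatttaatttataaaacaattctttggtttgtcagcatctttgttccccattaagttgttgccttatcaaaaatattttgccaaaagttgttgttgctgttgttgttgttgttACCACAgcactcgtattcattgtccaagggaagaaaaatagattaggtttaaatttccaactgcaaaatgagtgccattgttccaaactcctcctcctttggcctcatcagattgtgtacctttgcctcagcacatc

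The whole libraries were compared first, which asks how much of each member the node held at either stage. All 10 members were higher in the Advanced library, with ratios of counts per 1000000 UMIs (CPM) between 2.09 and 20.1. For 7 of 10 the interval of the ratio lay wholly above 2-fold, as it did for 4.12% of the 16941 genes with 10 or more UMIs, and for none did it lie below. In a pooled node a larger number of cells of a type and more RNA per cell cannot be told apart at this level. Cells in the T gate (2 or more of 6 T cell chains) were themselves 22.1% of Advanced and 2.88% of Early cells, a ratio of 7.68 (6.70 to 8.83), and Cd3e had a CPM ratio of 4.31.

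Klra7 had 1016 UMIs in 176 Advanced cells, against 41 UMIs in 11 Early cells, which is 12.2 against 0.607 CPM and a ratio of 20.1 (14.7 to 28.2). Klrc1 had 470 UMIs in 171 Advanced cells, against 29 UMIs in 7 Early cells, a ratio of 13.2 (9.05 to 19.9). Klrc2 had 493 UMIs in 185 Advanced cells, against 37 UMIs in 12 Early cells, a ratio of 10.8 (7.75 to 15.6). These 3 receptors thus rested on at most 12 cells in the Early library, and 31.0% of its Klrc1 UMIs were in 1 cell. Klre1 had 708 UMIs in 202 Advanced cells, against 93 UMIs in 24 Early cells, a ratio of 6.19 (4.98 to 7.77). Klrd1, the shared partner of Klrc1 and Klrc2, was found in by far the most cells, with 5322 UMIs in 1151 Advanced cells, against 912 UMIs in 188 Early cells, a ratio of 4.74 (4.42 to 5.10). Klrk1 had 1582 UMIs in 359 Advanced cells, against 275 UMIs in 69 Early cells, a ratio of 4.68 (4.11 to 5.34). The interval of Klrk1 overlapped that of Klrd1 and lay wholly below those of Klrc1, Klrc2 and Klra7. With cells of 5 or more B marker UMIs or 3 or more myeloid markers left out, which removed 6766 of 8183 Advanced and 7875 of 8221 Early cells and with them most of the total that a CPM is set against, the ratios were 4.64 (3.36 to 6.58) for Klra7, 4.18 (2.69 to 6.84) for Klrc1, 3.03 (2.07 to 4.59) for Klrc2, 2.34 (1.92 to 2.88) for Klrk1, 2.23 (1.69 to 2.99) for Klre1 and 1.85 (1.66 to 2.06) for Klrd1. These 6 receptors thus stayed higher in the Advanced library, by a smaller ratio.

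Klrb1c and Ncr1, often used to name an NK cell, were with Tbx21 the 3 members of lowest ratio. Klrb1c had 227 UMIs in 86 Advanced cells, against 78 UMIs in 25 Early cells, a ratio of 2.37 (1.82 to 3.101). Ncr1 had 142 UMIs in 30 Advanced cells, against 55 UMIs in 7 Early cells, a ratio of 2.10 (1.53 to 2.92). Both turned round, to 0.732 (0.537 to 1.01) for Klrb1c and 0.601 (0.403 to 0.913) for Ncr1, with the same B- or myeloid-marked cells left out. Of the factors, Eomes had 683 UMIs in 281 Advanced cells, against 122 UMIs in 20 Early cells, a ratio of 4.55 (3.75 to 5.57), with 21.3% of the Early UMIs in 1 cell, and of 1.58 (1.23 to 2.07) with marked cells left out. Tbx21 had 231 UMIs in 178 Advanced cells, against 90 UMIs in 75 Early cells, a ratio of 2.09 (1.63 to 2.69), and of 1.32 (0.757 to 2.48) with marked cells left out. Tbx21 was thus the member spread most thinly, with a median of 1 UMI per positive cell at both stages. Part of the counting of near-identical genes is uncertain: 37.5% of the 60-base words in the last 500 bases of Klrc1 transcripts also occur in Klrc2 or Klrc3, 17.4% of those of Klrc2 in Klrc1 or Klrc3, 17.3% of those of Klra7 in Klra13-ps, and 16.2% of those of Klrb1c in 4 genes that include Klrb1a, Klrb1b and the overlapping Gm44511.

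**Figure D1:**
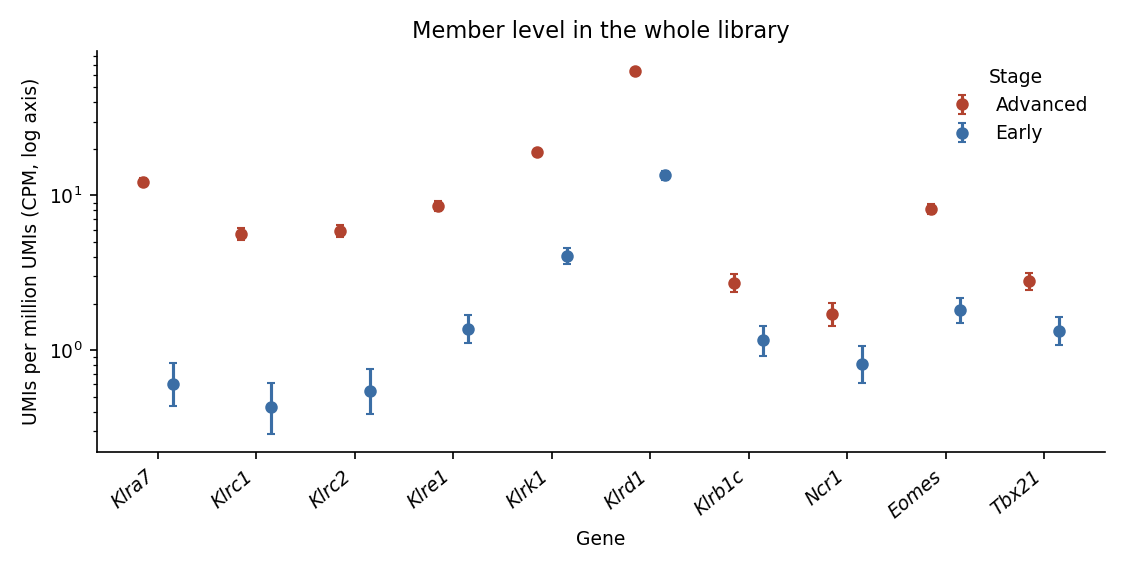
Level of each member in the whole library, in CPM on a log axis, for the Advanced and the Early library (points, with 95% Poisson intervals that cover counting error only). Every Advanced point lies above its Early point, with the widest gap for Klra7 (12.2 against 0.607) and the narrowest for Tbx21 and Ncr1.

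Because a single receptor UMI can be free RNA, cells with UMIs of 2 or more of the 8 receptor genes were taken as receptor cells. There were 342 receptor cells in the Advanced library (4.18%, 3.76% to 4.64%) and 51 in the Early library (0.620%, 0.462% to 0.815%), a ratio of 6.74 (5.01 to 9.23). In the B gate, which should lack these genes and leaves out cells in a second gate, 5 of 4962 Advanced (0.101%) and 0 of 7086 Early cells qualified. The upper limit of the Early share was 0.0520%, and the median depths were 7277 and 6539.5 UMIs. Of the mixed cells, those in more than 1 gate, 100 of 1496 Advanced (6.68%) and 17 of 597 Early (2.85%) qualified. The B gate therefore gives no rate for doublets. The ratio was 2.35 (1.52 to 3.78), with 221 Advanced and 23 Early cells, among cells without B or myeloid markers, where B cells no longer enter the denominator. It was 12.3 with 3 or more genes and 9.02 when every cell was thinned to 1000 UMIs, which left 98 Advanced and 11 Early receptor cells and set aside 149 Advanced and 85 Early cells that were shallower.

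The number of receptor genes per Advanced cell did not fall away evenly. It was 1 in 997 cells, 2 in 122, 3 in 27, 4 in 45, 5 in 63, 6 in 54, 7 in 29 and 8 in 2 cells. The low point at 3 separates cells with a single pair of genes from 193 cells that held 4 or more. In the Early library 189 cells held 1 receptor gene, 33 held 2, 6 held 3 and 12 held 4 or more. Klrd1 was the gene in 822 of the 997 Advanced cells with a single receptor gene (82.4%) and in 139 of 189 such Early cells (73.5%). Of those Klrd1-only cells, 321 Advanced and 22 Early ones fell in the CD8 T gate (the T gate with Cd8a or Cd8b1 and no Cd4) and 35 Advanced and 38 Early ones in the gate for plasmacytoid dendritic cells (Siglech with Ccr9, Klk1 or Bst2). A further 143 Advanced and 34 Early ones fell in the B gate, and 243 and 29 in more than 1 gate. The part of free RNA or doublets in them was not tested.

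**Figure D2:**
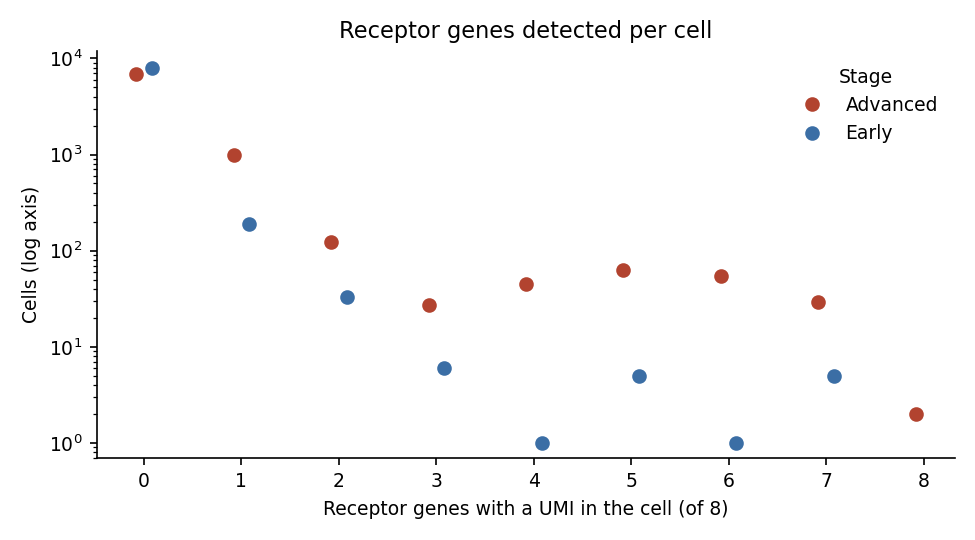
Number of cells (log axis) by the number of receptor genes, of 8, with a UMI in the cell, for the Advanced and the Early library. Advanced cells show a low point of 27 cells at 3 genes and a second rise to 63 cells at 5 genes, and no Early cell held all 8.

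Cd3e and Cd8a divided the positive cells of each member differently. Of the receptors, Klrc1 lay most often with Cd3e in the Advanced library: 110 of its 171 cells (64.3%) held both Cd3e and Cd8a, 41 held Cd3e alone, 2 Cd8a alone and 18 neither. In the Early library 1 of 7 Klrc1 cells held both, 1 Cd3e alone, 1 Cd8a alone and 4 neither. Klrc2 was similar, with Cd3e in 81.6% (75.3% to 86.9%) of 185 Advanced cells and in 33.3% (9.92% to 65.1%) of 12 Early cells. Klra7 had Cd3e in 70.5% (63.1% to 77.1%) of 176 Advanced and 54.5% (23.4% to 83.3%) of 11 Early cells, intervals that overlap. Klre1 had Cd3e in 73.3% of 202 Advanced cells and 29.2% of 24 Early cells. Klrk1 had it in 61.8% of 359 Advanced and 24.6% of 69 Early cells, and Klrd1 in 61.9% of 1151 Advanced and 19.7% of 188 Early cells.

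Ncr1 stood at the other end. Of its 30 Advanced cells 2 held a Cd3e UMI and 1 a Cd8a UMI, and of its 7 Early cells none held either, where a count of 0 of 7 allows a share of up to 41.0%. Klrb1c was divided: 28 of its 86 Advanced cells held both Cd3e and Cd8a, 26 Cd3e alone and 32 neither, but the 32 cells carried 56.4% of its UMIs. In the Early library 19 of 25 Klrb1c cells held neither, with 83.3% of the UMIs. No Klrb1c cell at either stage held Cd8a without Cd3e. Eomes went with T cells, with Cd3e in 242 of 281 Advanced cells (86.1%, 81.5% to 89.9%) and 13 of 20 Early cells (65.0%, 40.8% to 84.6%). Tbx21 did so less, with Cd3e in 84 of 178 Advanced cells (47.2%) and 11 of 75 Early cells (14.7%), and 55 of its Advanced and 45 of its Early cells were in the B gate, against 9 and 1 for Eomes. How often a T cell shows no Cd3e UMI was gauged in cells with both Trac and Cd8b1, which sets no upper bound for T cells without these UMIs. Of cells with both genes, 35 of 754 in the Advanced library (4.64%) and 2 of 67 in the Early library (2.99%) had no Cd3e UMI, at median depths of 13379 and 14648 UMIs. Cd8a was missed more often, in 15.6% and 26.9% of the same cells.

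**Figure D3:**
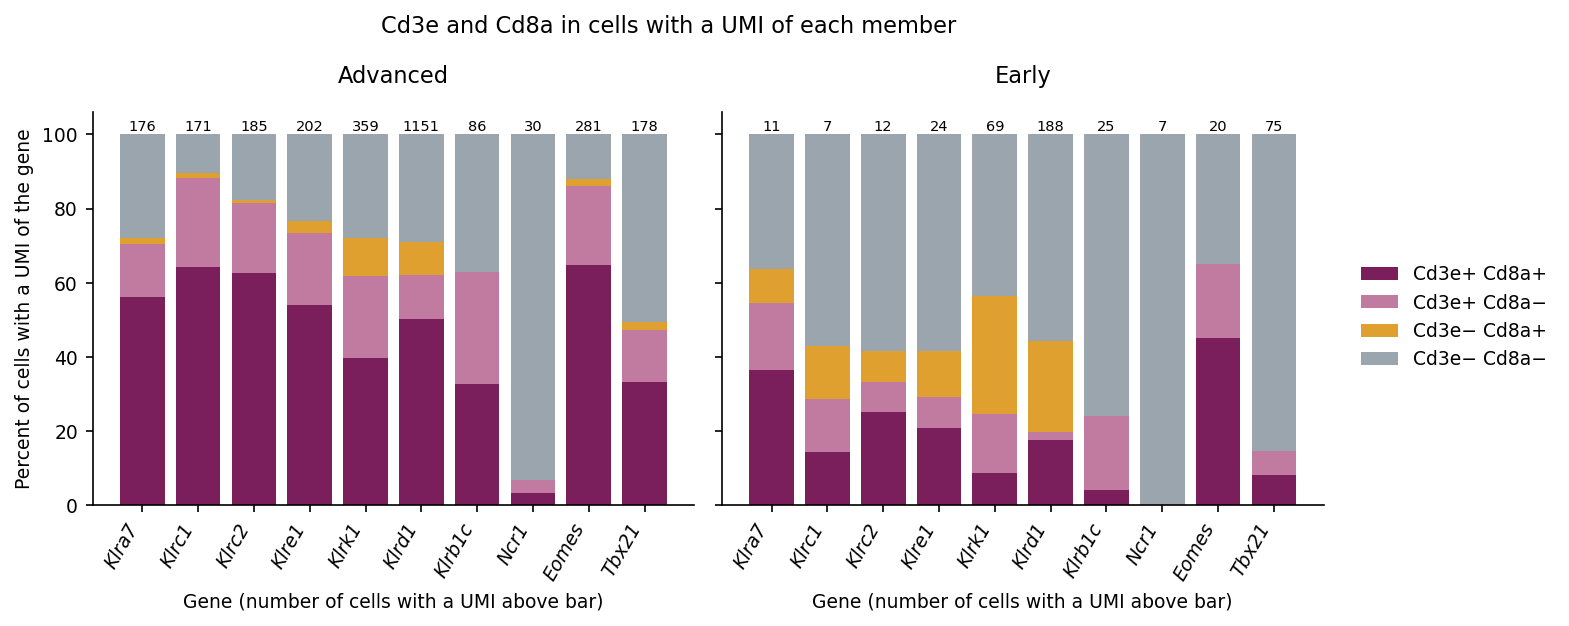
Percent of the cells with a UMI of each member that held Cd3e and Cd8a UMIs, Cd3e alone, Cd8a alone or neither, in the Advanced (left) and the Early (right) library, with the number of positive cells above each bar. Cd3e-bearing cells make up 88.3% of the Klrc1 cells but 6.67% of the Ncr1 cells in the Advanced library, and in the Early library cells with neither are the largest group for each member except Klra7 and Eomes.

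Over the receptor cells as a whole, Cd3d, Cd3e or Cd3g was found in 267 of 342 Advanced cells (78.1%, 73.3% to 82.3%) and in 14 of 51 Early cells (27.5%, 15.9% to 41.7%). Cd3e alone was found in 72.5% of Advanced and 23.5% of Early receptor cells, and in 1.77% of Advanced and 0.353% of Early B-gated cells. The B gate leaves out cells with 2 or more T cell chains, which holds its Cd3e share down. Cd8a was found in 60.8% (55.4% to 66.0%) of Advanced and 45.1% (31.1% to 59.7%) of Early receptor cells, against 1.995% of Advanced and 0.212% of Early B-gated cells. The share with Cd8a alone leaves out its partner: 183 of 208 Cd8a-bearing receptor cells in the Advanced library also held Cd3e, but 9 of 23 did so in the Early library. Thinned to 1000 UMIs, Cd8a was found in 10.2% of 98 Advanced and 18.2% of 11 Early receptor cells, so no order of the stages in Cd8a is read here.

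The receptor cells were then divided into 5 sets. NK-like cells were those with no Cd3e and no Cd8a UMI and with 4 or more of 8 NK markers (Ncr1, Klrb1c, Tyrobp, Fcer1g, Itga2, Gzma, Prf1 and S1pr5), a threshold set after values had been seen. There were 28 NK-like cells in the Advanced library (0.342% of cells) and 7 in the Early library (0.0851%), a ratio of 4.02 (1.72 to 10.9). Receptor cells with both Cd3e and Cd8a numbered 183 Advanced (2.24%) and 9 Early (0.109%), a ratio of 20.4 (10.5 to 45.4). Those with Cd3e and no Cd8a numbered 65 Advanced and 3 Early, a ratio of 21.8 (7.13 to 108). Those with Cd8a and no Cd3e numbered 25 Advanced and 14 Early, a ratio of 1.79 (0.897 to 3.73), an interval that includes 1. The other 41 Advanced and 18 Early cells held neither, a ratio of 2.29 (1.29 to 4.23). The intervals of the Cd3e-bearing set with Cd8a and of both Cd3e-negative sets other than NK-like do not overlap, whereas the NK-like interval overlaps each of them. Among the 1417 Advanced and 346 Early cells without B or myeloid markers, the NK-like cells were 17 (1.20%) and 5 (1.45%), a ratio of 0.830 (0.294 to 2.88), so no direction is read for them. The sets with Cd8a alone and with neither gene also turned round there, to 0.570 (0.130 to 3.41) and 0.635 (0.212 to 2.27), with intervals that include 1. Cells with both Cd3e and Cd8a were 138 (9.74%) and 7 (2.02%), a ratio of 4.81 (2.27 to 12.2), and those with Cd3e alone 46 and 3, a ratio of 3.74 (1.204 to 18.8).

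**Figure D4:**
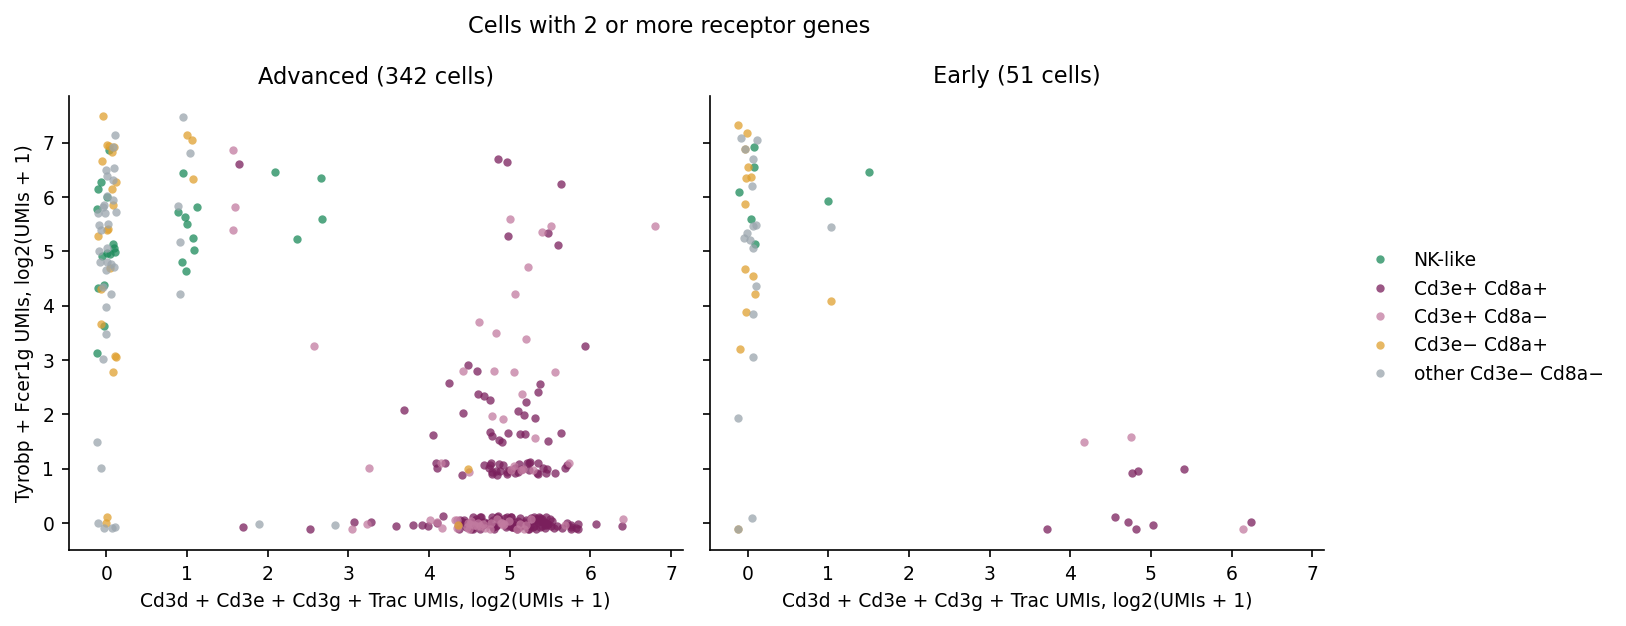
Each receptor cell by its summed UMIs of Cd3d, Cd3e, Cd3g and Trac (x axis) and of the adaptors Tyrobp and Fcer1g (y axis), both as log2(UMIs + 1) with a small random offset, in the Advanced (left, 342 cells) and the Early (right, 51 cells) library, coloured by set. NK-like cells sit at the upper left with median T chain UMIs of 0, the cells with both Cd3e and Cd8a at the lower right with median adaptor UMIs of 0, and the Early library holds 12 cells that carry Cd3e.

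The NK-like cells carried the adaptors of NK receptors and nearly all of the Ncr1. Tyrobp and Fcer1g were found in 28 of 28 Advanced and 7 of 7 Early NK-like cells, Ncr1 in 26 of 28 and 7 of 7, and Klrb1c in 26 of 28 and 6 of 7. These genes are among those that defined the set, so the shares are a description. The set held 95.1% of the Ncr1 UMIs and 53.3% of the Klrb1c UMIs of the Advanced library, but 4.68% of its Klrc1 and 7.74% of its Klrd1 UMIs. Eomes was found in 22 of 28 Advanced and 6 of 7 Early NK-like cells, and Tbx21 in 14 of 28 and 3 of 7. A Trac UMI was found in 4 of 28 Advanced and 1 of 7 Early NK-like cells and a Cd3d UMI in 8 of 28 and 2 of 7, whereas the T cell receptor beta constant genes Trbc1 or Trbc2 were found in 26 of 28 and 7 of 7. A gate built on the beta chain would therefore take these cells in, and the T gate used here placed 11 of the 28 and 4 of the 7 among T cells without CD4 or CD8. B marker UMIs reached 5 in 10 of 28 Advanced and 2 of 7 Early NK-like cells. With all B- or myeloid-marked cells left out, 17 Advanced and 5 Early NK-like cells remained, at a ratio of shares of 0.830 (0.294 to 2.88). Whether the marked cells were doublets was not tested.

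Within NK-like cells most members had intervals that included equal levels at both stages. Klrk1 stood at 686 CPM in Advanced and 788 CPM in Early NK-like cells, a ratio of 0.87 (0.70 to 1.09), Klrd1 at 908 CPM in Advanced and 830 CPM in Early (ratio 1.09, 0.89 to 1.35), and Ncr1 at 298 CPM in Advanced and 387 CPM in Early (ratio 0.77, 0.56 to 1.07). The highest Advanced NK-like cell for Klrd1 held 127 of its 412 UMIs. The intervals of Klre1, Klrc2, Klrb1c and Tbx21 also included 1. In single Advanced NK-like cells Ncr1 ran between 0 and 15 UMIs with a median of 4, and in Early ones between 2 and 16 with a median of 9. Outside that pattern were 3 members. Klra7 stood at 714 CPM in Advanced and 70.3 CPM in Early NK-like cells, a ratio of 10.2 (5.45 to 21.4), with 324 UMIs in 18 of 28 Advanced cells and 10 UMIs in 2 of 7 Early cells, 9 of them in 1 cell. Eomes stood at 320 CPM in Advanced and 91.4 CPM in Early (ratio 3.496, 1.98 to 6.72), with a highest cell of 46 UMIs in Advanced and 5 in Early. Klrc1 went the other way, with 48.5 CPM in Advanced and 176 CPM in Early NK-like cells, a ratio of 0.276 (0.148 to 0.510). The 7 Early cells came from at most 3 mice, and Ly49 genes are switched on in some NK cells and not in others.

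**Figure D5:**
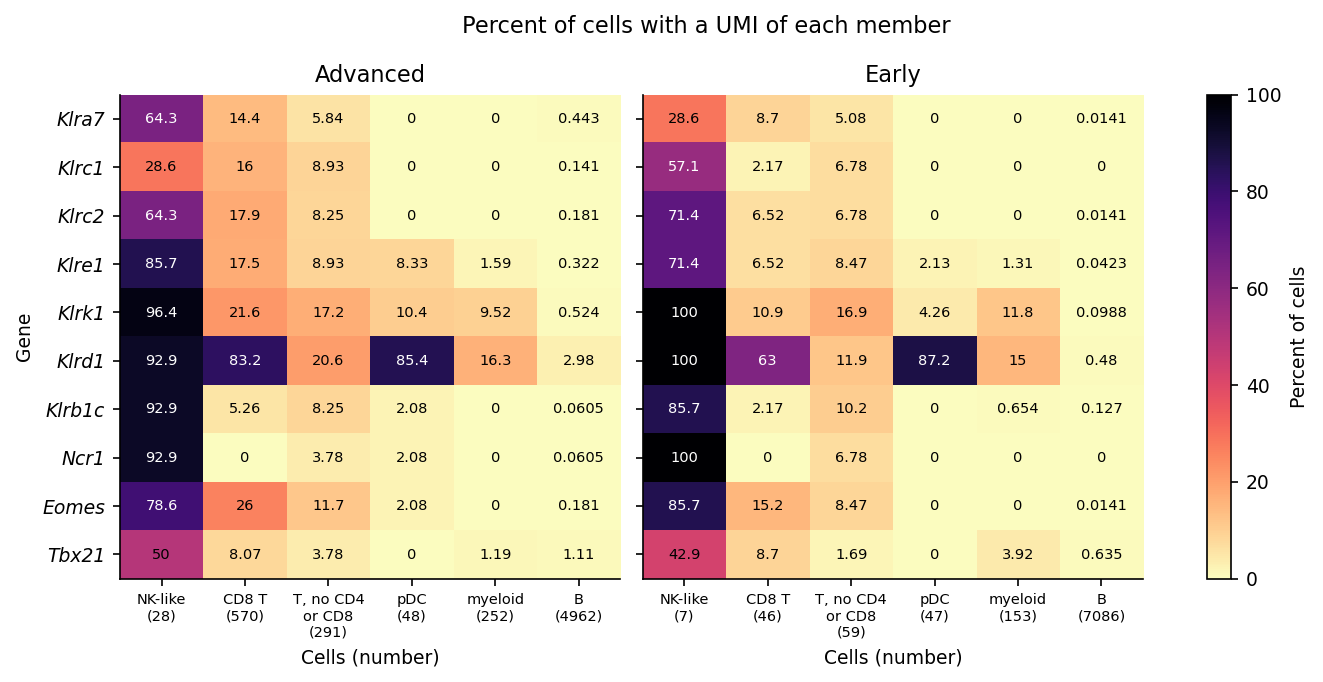
Percent of cells with a UMI of each member (rows) in NK-like cells and in cells of 5 marker gates (columns, number of cells in brackets), in the Advanced (left) and the Early (right) library. Ncr1 is in 92.9% and 100% of NK-like cells and in no CD8 T cell, while Klrd1 is in 83.2% of Advanced CD8 T cells and in 85.4% and 87.2% of Siglech-gated (pDC) cells. NK-like cells can also lie in a gate.

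Cells with both Cd3e and Cd8a carried 67.4% of the Klrc1, 62.7% of the Klrc2 and 54.9% of the Klra7 UMIs of the Advanced library. The CD8 T gate held 570 Advanced cells, of which 155 (27.2%, 23.6% to 31.0%) were receptor cells, and 46 Early cells, of which 7 (15.2%, 6.34% to 28.9%) were, at median depths of 12454 and 12649.5 UMIs. The shares are within each other's counting error. In CD4 T cells 2 of 205 Advanced (0.976%) and 0 of 56 Early cells qualified, and a count of 0 of 56 allows a share of up to 6.38%. Of the 183 Advanced receptor cells with Cd3e and Cd8a, none held Ncr1, which allows a share of up to 1.996%, while 181 held Klrd1, 138 Klrk1, 115 Klrc2, 109 Klrc1, 109 Klre1, 98 Klra7, 28 Klrb1c, 91 Eomes and 41 Tbx21. The 155 Advanced CD8 receptor cells were chosen for 2 or more receptor genes, so each held another receptor by that choice. Of all 155, Klre1 was in 100, Klrk1 in 117, Klrc2 in 102 and Klrc1 in 91. Of the 82 with Klra7, 66 also held Klre1, 65 Klrk1, 63 Klrc2 and 54 Klrc1. Of the 91 with Klrc1, the inhibitory partner of Klrd1, 70 also held Klrc2, the activating one, 2 genes with shared transcript ends.

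Levels within CD8 T cells were compared to set aside the number of T cells. Of the 9 members tested, 3 had the interval of the Advanced over Early ratio wholly above 2-fold, against 0.121% of 10788 genes tested, and none wholly below it, against 3.87%. Klre1 stood at 47.8 CPM in Advanced and 11.8 CPM in Early CD8 T cells, a ratio of 4.04 (2.11 to 8.92), found in 17.5% of 570 and 6.52% of 46 cells. With the top cell of each library left out the Klre1 ratio was 11.5 (3.89 to 55.9), and 66.7% of its 9 Early UMIs were in 1 cell. Klrk1 averaged 82.9 CPM in Advanced and 21.03 CPM in Early CD8 T cells (ratio 3.94, 2.41 to 6.94), but 75.0% of its 16 Early UMIs were in 1 cell, and without the top cells its ratio was 15.03 (5.84 to 55.4). Klrc1 averaged 35.7 CPM in Advanced and 2.63 CPM in Early CD8 T cells (ratio 13.6, 3.73 to 113), with only 2 Early UMIs in 1 cell. Klrd1 was in 474 of 570 Advanced (83.2%, 79.8% to 86.1%) and 29 of 46 Early CD8 T cells (63.0%, 47.5% to 76.8%), with a ratio of 1.84 (1.53 to 2.23). Klrc2 had a ratio of 2.89 (1.55 to 6.09). Klra7 stood at 63.1 CPM in Advanced and 31.5 CPM in Early CD8 T cells, with an interval of the ratio between 1.33 and 3.15.

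Klrb1c, Eomes and Tbx21 had intervals that included 1 in CD8 T cells. Klrb1c had 49 UMIs in 30 Advanced and 5 UMIs in 1 Early CD8 T cell, a ratio of 1.02 (0.411 to 3.30). Tbx21 had a ratio of 1.05 (0.453 to 2.96). Eomes was in 26.0% of Advanced and 15.2% of Early CD8 T cells, yet its CPM ratio was 0.762 (0.544 to 1.09), and 1 Early cell held 56.4% of the 39 Early UMIs. Without the top cell of each library the ratio was 1.68 (1.03 to 2.93), and with T cells in more than 1 gate counted in it was 0.488 (0.386 to 0.623), so no direction is read. Ncr1 had no UMI in 570 Advanced and 46 Early CD8 T cells.

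Among Advanced CD8 T cells, those with 2 or more receptor genes also differed in genes that did not choose them. Set against the 327 CD8 T cells with exactly 1 receptor gene, which had a like depth (median 12579 against 13592 UMIs in the 155 cells with 2 or more), Eomes stood at 74.9 CPM against 24.9 CPM, a ratio of 3.01 (2.34 to 3.87), and was found in 49.7% (41.6% to 57.8%) against 19.0% (14.9% to 23.6%) of cells. Tbx21 stood at 21.9 CPM against 2.59 CPM, a ratio of 8.48 (4.34 to 18.1), and was found in 23.2% against 2.75% of cells. Of the cytotoxic and chemokine list, 6 of 11 genes tested were more than 2-fold higher with their whole interval, against 1.28% of 10250 genes, and none was lower, against 0.38%. They included Ccl5, a chemokine of memory T cells, with 7694 CPM against 380 CPM (a ratio of 20.3, 19.3 to 21.3), the chemokine Xcl1 with 154 against 5.88 CPM (26.1, 17.4 to 40.9), the granzyme Gzmm with 135 against 12.5 CPM (10.8, 8.08 to 14.8) and Fasl, which triggers cell death in a target, with 25.1 against 1.18 CPM (21.4, 8.62 to 68.4). Gzma, which NK-like cells held in quantity, was not among them, with 1.83 against 5.88 CPM.

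Of the memory and IL-15 response list, 7 of 17 genes were more than 2-fold higher in the CD8 T cells with 2 or more receptor genes, against 1.28% of all genes tested, and none lower, against 0.38%. Il2rb, the receptor chain shared by IL-2 and IL-15, stood at 275 against 54.8 CPM (5.02, 4.31 to 5.86), the memory marker Cd44 at 62.2 against 11.5 CPM (5.39, 3.86 to 7.63) and Ly6c2 at 1216 against 397 CPM (3.06, 2.88 to 3.26), while the lymph node homing receptor Ccr7 stood at 104 against 222 CPM (0.470, 0.405 to 0.543). Of the other NK receptors, 7 of 11 tested were higher and none lower, against the same shares. They included Klra6 (Ly49F) with 197 UMIs against 1 UMI (a ratio of 383, 67.9 to 15190), Klra3 with 130 against 15 UMIs (16.8, 9.84 to 30.9), and Klra1 (Ly49A) with 244 against 0 UMIs, at least 158-fold higher when 0 is set at a floor of 3 UMIs. None of the 8 ligand genes tested, among them H2-T23 (Qa-1) with 170 against 228 CPM, had its interval wholly beyond 2-fold.

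The 88 CD8 T cells with no receptor gene, which were shallower (median 8427.5 UMIs), were compared next, the members that chose the cells aside. By the interval end nearest to 1, the gene farthest above them was Ccl5 (43.7, 37.1 to 51.7). Next came Gzmm, Klra1 and Klra6, each with 0 UMIs in the 88 cells. These were followed by Ccl4 (40.8), Ly6c2 (8.60), Ctla2a (8.21), Samd3 (16.0) and Gas7, the last also with 0 UMIs there. Farthest below were Hist1h2ap (0.0227, 0.0177 to 0.0286), Ramp1 (0.0675), Stmn1 (0.0940), Ifngr2 (0.0424) and Marcks (0.0663). The histone gene Hist1h2ap and Stmn1 are known from dividing cells, and the part of division in the comparison was not tested. The interval was wholly above 2-fold for 0.824% of 9220 genes tested and wholly below for 2.22%.

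NK-like cells and Cd3e-bearing Cd8a-bearing receptor cells of the Advanced library were set side by side. All 8 receptors had served to pick receptor cells, so their levels are a description. Of the 10 members 7 had their interval wholly above 2-fold, among them Ncr1 and Klrb1c, which defined the NK-like set, against 3.96% of 9773 genes. Klra7 stood at 714 CPM in the 28 NK-like cells against 184 CPM in the 183 T cells (a ratio of 3.89, 3.38 to 4.47), Klrk1 at 686 against 220 CPM (3.11, 2.71 to 3.56), Klrd1 at 908 against 383 CPM (2.37, 2.11 to 2.65) and Klre1 at 399 against 127 CPM (3.15, 2.62 to 3.76). In NK-like cells the highest cell held 127 of the 412 Klrd1 UMIs and 75 of the 324 Klra7 UMIs. How far these ratios and the count of 7 members rest on such cells was not tested. Klrc2 did not differ beyond counting error (132 against 101.5 CPM, a ratio of 1.30, 0.97 to 1.72), and Klrc1 was lower in NK-like cells (48.5 against 104 CPM, a ratio of 0.466, 0.288 to 0.718). The factors were higher in NK-like cells, Eomes with 320 against 65.2 CPM (4.90, 3.93 to 6.10) and Tbx21 with 55.1 against 18.5 CPM (2.99, 1.79 to 4.87).

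Other Klr genes split the same cells. Of the other NK receptors, 9 of 16 tested were more than 2-fold higher in NK-like cells and 1 was lower, against 0.573%. Klra8 (Ly49H), the activating receptor for a cytomegalovirus protein in C57BL/6 mice, stood at 350 against 4.61 CPM (76.0, 44.0 to 142), Klra4 (Ly49D) at 364 against 0.329 CPM, and Klrb1f at 254 against 3.95 CPM (64.1, 35.3 to 128). The single receptor gene lower in NK-like cells was Klra6, with 8.82 against 75.1 CPM (0.117, 0.0317 to 0.305). Gzma, one of the markers that defined the NK-like set, stood at 1270 against 1.32 CPM. Of the cytotoxic and chemokine list 6 of 11 genes tested were more than 2-fold higher, among them the NK markers Gzma and Prf1, and 1 was lower. Of the memory and IL-15 response list 3 of 17 were higher and 2 lower, against 3.96% and 0.573% of 9773 genes. Of genes that did not choose the cells, Xcl1 (1283 against 114 CPM), Ccl4 (675 against 39.2 CPM) and Id2 (408 against 70.2 CPM) were higher in NK-like cells. Gzmm (11.02 against 104 CPM), Ly6c2 (238 against 1053 CPM), Lef1 (28.7 against 136 CPM) and Cxcr6 (2.20 against 58.3 CPM) were lower there, each with its interval wholly below 2-fold. Runx3, a RUNX factor of both cell types, stood at 179 against 141 CPM, a ratio of 1.27 (0.99 to 1.61).

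The remaining Cd3e-negative receptor cells fell outside the NK-like rule. In the Advanced library 25 held Cd8a and 41 did not, and in the Early library 14 held it and 18 did not. Their median number of receptor genes was 2 in each of these sets, and they carried Klrd1 and Klrk1: Klrd1 was in 24 of 25 and 37 of 41 Advanced and in 13 of 14 and 18 of 18 Early cells, and Klrk1 in 20 of 25 and 32 of 41 Advanced and in 12 of 14 and 13 of 18 Early cells. Gzma and Ncr1 had no UMI in these sets at either stage, which the marker rule fixes in part, and Tyrobp, a marker of the same rule, was in 20 of 25 and 32 of 41 Advanced and 13 of 14 and 16 of 18 Early cells. Siglech, a surface lectin of plasmacytoid dendritic cells, was in 14 of 25 and 12 of 41 Advanced and in 7 of 14 and 4 of 18 Early cells, and Lyz2, a lysozyme of myeloid cells, in 9 of 25 and 18 of 41 Advanced and in 6 of 14 and 8 of 18 Early cells. The 37 Advanced receptor cells with no T cell chain at all differed from the 276 with 2 or more chains most in Cst3 (13.2, 12.5 to 13.9), Grn (13.3), Rogdi, Tcf4 (10.4), Marcks (10.1), Tmem176b (9.81), Irf8 (9.64), Rnase6 (8.98), Ccdc88a (8.47) and Bst2 (8.09), and were lowest, after the chains that defined them, in Nkg7 (0.00408). The interval was wholly above 2-fold for 7.72% of 10829 genes tested and wholly below for 2.66%. Cst3, Tcf4, Irf8 and Bst2 are known genes of dendritic cells. Of the Cd3e-negative sets, 18 of 25 and 28 of 41 Advanced and 11 of 14 and 13 of 18 Early cells held 5 or more B marker UMIs or 3 or more myeloid markers, and the part of doublets in them was not tested.

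Klrd1 was the member found in the most cells of the Siglech and myeloid gates at both stages. It was in 41 of 48 Advanced (85.4%, 72.2% to 93.9%) and 41 of 47 Early (87.2%, 74.3% to 95.2%) Siglech-gated cells, with 485 CPM in Advanced and 303 CPM in Early (ratio 1.60, 1.33 to 1.92). Klrk1 was in 5 Advanced and 2 Early Siglech-gated cells, with 27 and 2 UMIs (ratio 11.3, 2.83 to 97.7). Klre1 was in 4 and 1 of them. In the myeloid gate (3 or more of 8 myeloid markers) Klrd1 was in 41 of 252 Advanced (16.3%) and 23 of 153 Early (15.03%) cells and Klrk1 in 9.52% and 11.8%, with ratios of 1.19 (0.953 to 1.499) and 1.23 (0.87 to 1.75). In the B gate the shares were 2.98% and 0.480% for Klrd1 and 0.524% and 0.0988% for Klrk1. Other members were found there too, with 1.11% and 0.635% for Tbx21, 0.443% and 0.0141% for Klra7 and 0.322% and 0.0423% for Klre1. Klra7, Klrc1 and Klrc2 had no UMI in 252 Advanced and 153 Early myeloid-gated cells, nor in 48 and 47 Siglech-gated cells. Cd8a, which some dendritic cells carry, was in 41.7% of Advanced and 44.7% of Early Siglech-gated cells, and Cd3e in none. Most Early Klrd1 cells, 105 of 188, held neither Cd3e nor Cd8a, against 333 of 1151 Advanced ones.

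The members' lists can be read beside other genes of the pathway at the level of the whole library. Of 21 other NK receptors tested, 10 were more than 2-fold higher in the Advanced library, against 4.12% of all genes tested, and none lower, with a median log2 ratio of 1.66 against 0.12 over all genes tested. Of 12 cytotoxic and chemokine genes 7 were higher and 1, Gzmb, lower (0.794 against 2.87 CPM, a ratio of 0.277, 0.206 to 0.368). Of 17 memory genes 6 were higher, of 12 adaptor and signalling genes 2 (Cd247 and Zap70, which act in T and NK cells), and of 10 ligand genes none, with a median log2 ratio of 0.11. Genes below 2-fold made up 0.254% of all genes tested. Gzma, the granzyme of the NK-like cells, stood at 13.9 CPM in the Advanced and 12.2 CPM in the Early library, a ratio of 1.14 (1.04 to 1.25).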

How the data were processed

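Single-cell 3' libraries (10x Genomics) of PLN cells were analysed, 1 per stage. Each deposited matrix holds raw UMI counts for barcodes that the authors' pipeline called as cells, and no correction for free RNA is stated in the sources used here. Cell Ranger 6.0.1 stands in the matrix header, but versions 3.1 and 3.1.0, with Seurat 4.0.3 and mm10, stand in the notes of the submitters on processing. The version affects which reads and barcodes are kept. Positions are from GENCODE M21 (GRCm38, 1-based) and promoter windows from RefSeq (GRCm38.p6).

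A minimum of 200 genes per barcode took out 18 Advanced and 21 Early barcodes. A gene was called in a cell at 1 UMI. Cells were gated by markers, with no clustering, and a cell in more than 1 gate was called mixed (1496 Advanced and 597 Early cells, of which 100 and 17 were receptor cells). No doublets were removed. Shares have exact Clopper-Pearson intervals, summed UMIs exact Poisson intervals and CPM ratios exact conditional intervals, computed in Python 3.11.15 with scipy 1.17.1. A gene with 10 or more UMIs was counted as higher or lower when its interval lay wholly beyond 2-fold, and a count of 0 was set at a floor of 3 UMIs. Named genes were the members, Cd3 chains, Trac, Cd8a, Cd8b1 and Cd4, the 10 highest and 5 lowest genes by the interval end nearest to 1, seen in 20% of receptor cells or more, of CD8 T cells with 2 or more over 0 receptor genes and of receptor cells with 0 over 2 or more T cell chains, and members of gene lists. Other genes were named after their values were seen, and some genes that the rule names are not reported here. The members, lists and gates were chosen with earlier results of these data known, and the NK-like set after the values were seen. The alternatives were other cell filters, thresholds, totals and weights.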

Additional observations from a re-analysis of the deposited data

Results flagged for a closer look

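Klrc1 was the member whose stage difference pointed in opposite directions in 2 cell types. Its Advanced over Early ratio was 0.276 (0.148 to 0.510) in NK-like cells, with 22 UMIs in 8 of 28 Advanced cells and 25 UMIs in 4 of 7 Early cells, and 13.6 (3.73 to 113) in CD8 T cells, with 260 UMIs in 91 of 570 Advanced cells and 2 UMIs in 1 of 46 Early cells. The difference between the cell types was not tested, since each stage is 1 pooled library, and 36.0% of the Early NK-like UMIs were in 1 cell.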

How the results depend on the processing

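The first group of alternatives covered the ratio of receptor cell shares, the shares with a CD3 chain or Cd8a, NK-like cell counts and numbers of members past 2-fold. Of these, 48 stayed inside the interval of the main value (for counts, within 1.5 times of it) and 20 did not. For the receptor cell share of each library and the ratio of each member, 108 stayed inside, 29 did not and 2 turned round. The Advanced receptor cell share was 15.6% with marked cells left out and 1.22% after thinning, and the Early share 6.65% and 0.135%. The Advanced over Early ratio of receptor cell shares was 2.35 with B- or myeloid-marked cells left out, 12.3 with 3 or more receptor genes and 11.2 with 2 UMIs of a gene. The share of receptor cells with a CD3 chain was, in the Advanced library, 86.9% with marked cells left out, 64.2% with 1 or more receptor genes, 90.9% with 3 or more, 85.5% with 2 UMIs, 65.3% after thinning to 1000 UMIs, 72.5% with Cd3e only and 89.2% with any of 6 T cell chains, and, in the Early library, 43.5% with marked cells left out, 44.4% with 3 or more receptor genes and 47.1% with any chain. It was higher in the Advanced library under each of these. The share with Cd8a was 53.4% with 1 or more receptor genes, 10.2% after thinning and 69.9% with Cd8a or Cd8b1 in the Advanced library, and 28.6% with 2 UMIs and 18.2% after thinning in the Early library. With marked cells left out, 17 Advanced NK-like cells were counted and 3 members lay wholly above 2-fold in the whole library, and the ratios of Klrb1c (0.732) and Ncr1 (0.601) turned round, as did the ratio of NK-like shares (0.830). That setting drops nearly all B cells, and with them the denominator. Within CD8 T cells the number of members wholly above 2-fold was 3 under each alternative that gives an interval, but not the same members: without the top cells Klrc1 gave no value and Klrc2 (4.56, 2.07 to 12.5) joined Klre1 and Klrk1. Leaving out shared barcodes, other rules for NK-like cells, cells with exactly 1 receptor gene as the comparison and counting in mixed T cells were chosen after seeing the data. No paired analysis was possible because each stage is 1 pooled library. The number of cells limits what can be read of Early NK-like and CD8 T cells, of which 7 and 46 were found.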
